A study of Schmidtea mediterranea with 2 samples.

Results

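Genes enriched together with SMESG000061387.1 were described in single trunk cells of the planarian Schmidtea mediterranea, a flatworm that regenerates from stem cells. In the control RNA interference (RNAi) library, cells with at least 200 detected genes were divided by their unique molecular identifiers (UMIs, which count captured transcripts) of SMESG000061387.1. Cells with at least 2 UMIs are called positive, and cells with 0 are called cells without it. UMIs were summed in each class and scaled to CPM, each gene's part of all UMIs in the class times 1000000. The 100 genes with the highest ratio of CPM plus 10, positive over without, were taken as members out of 10524 genes with at least 50 UMIs in that library, from 22016 features in all. SMESG000061387.1 ranks first by construction, which leaves 99 other members.

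The study comprised 1 library of animals under control RNAi and 1 library of animals under foxA RNAi, both of the genotype given as CIW4. For each, trunks of 50 animals were pooled and dissociated, and nucleated cells that stained as live were sorted and loaded for droplet 3′ sequencing. The age of the animals and the course of RNAi are not given in the sources used here. foxA encodes a forkhead transcription factor that is known in planarians for its part in making the pharynx, the feeding organ of the trunk, and RNAi lowers a transcript with double-stranded RNA of its sequence. The files pair no identifier with a gene name, so no member is given a role, no cell type is named, and how much foxA transcript remained was not analysed here.

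A gene that is transcribed in only one kind of cell can be used to find that kind of cell among many profiles, and the genes that accompany it then describe the rest of its expression programme. Some specialised cells, such as those that make a secreted peptide, devote much of their messenger RNA to a single product. In such cells the remaining transcripts are sampled thinly, and a list of accompanying genes is only as firm as the number of cells and UMIs behind it.

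The control library held 5978 kept cells with 4295899 UMIs and a median of 563 UMIs per cell, and the foxA library held 6781 kept cells with 7840511 UMIs and a median of 904. With 1 library per condition there is no replicate check and no test between conditions, and every interval below is an exact 95% interval for counting error only. The libraries shared 13 cell barcodes, none of them that of a positive cell. Of 28 clusters of cells from both libraries, all positive cells lay in cluster 2, which held 611 control cells and 610 foxA cells. A doublet caller marked 1 control cell and 0 foxA cells, so its calls were not usable and every cell was kept. Its scores placed the positive control cells at percentiles 67.0 to 84.2 of their library and the positive foxA cells at 41.6 to 94.4, with the 2 deepest of these, of 3899 and 3525 UMIs, at 93.7 and 92.7. Whether any positive cell is a doublet was not tested.

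SMESG000061387.1 marked very few cells, and it supplied a large share of the UMIs in those of the control library. Only 8 of 5978 control cells were positive, a share of 0.134% (0.0578% to 0.264%). In the foxA library 7 of 6781 cells were positive, 0.103% (0.0415% to 0.213%). The log2 ratio of these shares was -0.37, with an interval from -2.07 to 1.28, so no difference in share was detectable at this depth. With cells of 1 UMI counted as positive it was -0.83 (-1.70 to -0.0015), an interval just clear of 0. Within cluster 2 the positive cells made up 1.31% in control and 1.15% in foxA, so the gene marks a small group inside that cluster and not the cluster as a whole.

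The 8 positive control cells carried 587, 513, 493, 465, 383, 367, 290 and 101 UMIs of SMESG000061387.1. No control cell lay between these and the 25 cells with a single UMI. The gene supplied between 27.7% and 56.2% of all UMIs in each positive control cell, with a median of 44.7%. The 7 positive foxA cells carried 233, 213, 211, 206, 192, 56 and 2 UMIs, which made up between 0.365% and 14.2% of their UMIs, with a median of 5.98%. These shares did not overlap between the libraries, but cells of the same library are not replicates of a condition. How many other genes had shares without overlap was not counted. The foxA cells were also deeper, with a median of 1578 UMIs against 978.5. Since the positive cells were chosen by SMESG000061387.1, its level in them is a description, and no effect of the condition is read from it.

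**Figure D1:**
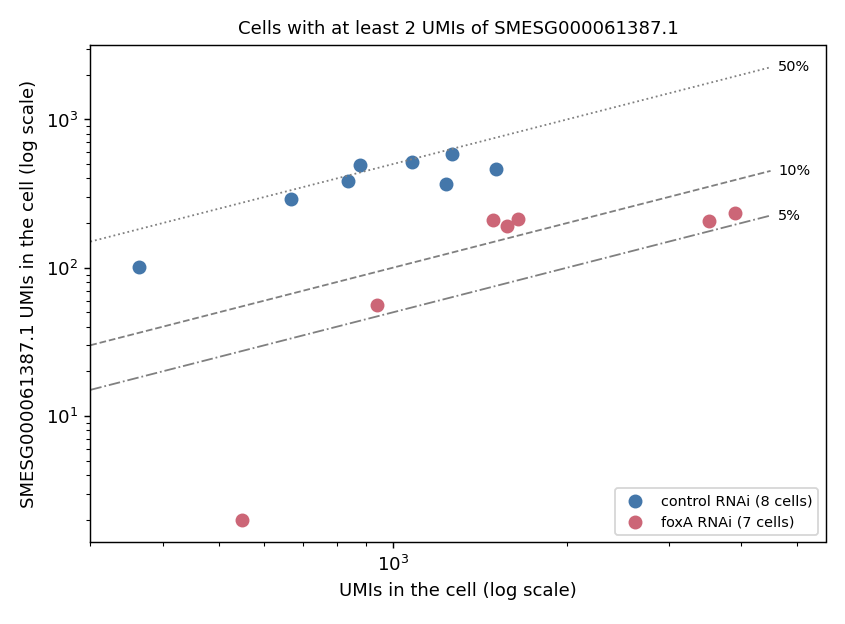
UMIs of SMESG000061387.1 (vertical, log scale) against all UMIs (horizontal, log scale) in each positive cell, with lines at 50%, 10% and 5% of the cell's UMIs. The 8 control cells lie between 27.7% and 56.2%, and the 7 foxA cells at or below 14.2%, the lowest with 2 UMIs.

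Over whole libraries, SMESG000061387.1 had 750.5 CPM in control from 3224 UMIs, and 144 CPM in foxA from 1127. The log2 ratio was -2.38 (-2.48 to -2.29). Positive cells held 99.2% of its control UMIs and 98.8% of its foxA UMIs. The cells with a single UMI were scattered, the 25 control cells over 13 clusters and the 14 foxA cells over 10 clusters. Outside cluster 2, 0.373% of control cells and 0.211% of foxA cells had a single UMI, at median depths of 570 and 920 UMIs. Inside cluster 2 the shares were 0.818% (5 cells) and 0.164% (1 cell). No expression is read from a single UMI.

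The 8 control cells together held 7838 UMIs, of which 4639 were of other genes. This sets the precision of the list. Of the 99 other members, 12 had at least 10 UMIs in the positive control cells, 30 had 4 to 9 and 57 had 2 or 3. In control all 99 exceed 4-fold by their choice, as did 3.9% of all genes. The ratio that chose them ran from 223 at rank 2 down to 6.48 at rank 100, with a median of 9.86. At the threshold, SMESG000002944.1 (ratio 6.53, 3 UMIs in positive cells) and SMESG000018088.1 (6.48, 2 UMIs) were just inside, and SMESG000048913.1 (6.47, 1 UMI) and SMESG000053142.1 (6.45, 3 UMIs) just outside. One UMI more or less in the 8 cells would have moved genes across this boundary.

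The leading members were found in most positive control cells. SMESG000019347.1 (rank 2) had 8, 9, 3, 16, 9, 14, 4 and 2 UMIs in the 8 cells, ordered by their content of SMESG000061387.1, a summed level of 8293 CPM (6400 to 10570) against 27.2 CPM in control cells without SMESG000061387.1. SMESG000076421.1 (rank 3) had 20, 5, 7, 13, 8, 7, 14 and 1 UMIs, or 9569 CPM against 75.3 CPM. SMESG000005578.1 (rank 4) had 15, 14, 7, 17, 6, 22, 6 and 0 UMIs, or 11100 CPM against 96.4 CPM. The eighth cell, which had the fewest UMIs of all (364), was also the lowest or level with the lowest for each of these 3 genes.

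SMESG000014460.1 (rank 9) was the most abundant of the other members in the positive control cells, at 19010 CPM (16080 to 22319), with 17, 14, 23, 45, 13, 19, 18 and 0 UMIs. It also had the highest level of any member in control cells without SMESG000061387.1, 605 CPM, followed by SMESG000008070.1 (rank 70) at 418 CPM. The lowest such levels were 0 for SMESG000061387.1, by definition, and 11.02 CPM for SMESG000076969.1, which had 2 UMIs in the positive cells. SMESG000076971.1 (rank 5), SMESG000005371.1 (rank 6) and SMESG000069589.1 (rank 7) stood at 5231, 3190 and 3955 CPM in the positive control cells, against 72.2, 71.8 and 92.4 CPM in cells without SMESG000061387.1. SMESG000066775.1 (rank 8) and SMESG000011995.1 (rank 10) rested on 7 and 10 UMIs.

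**Figure D2:**
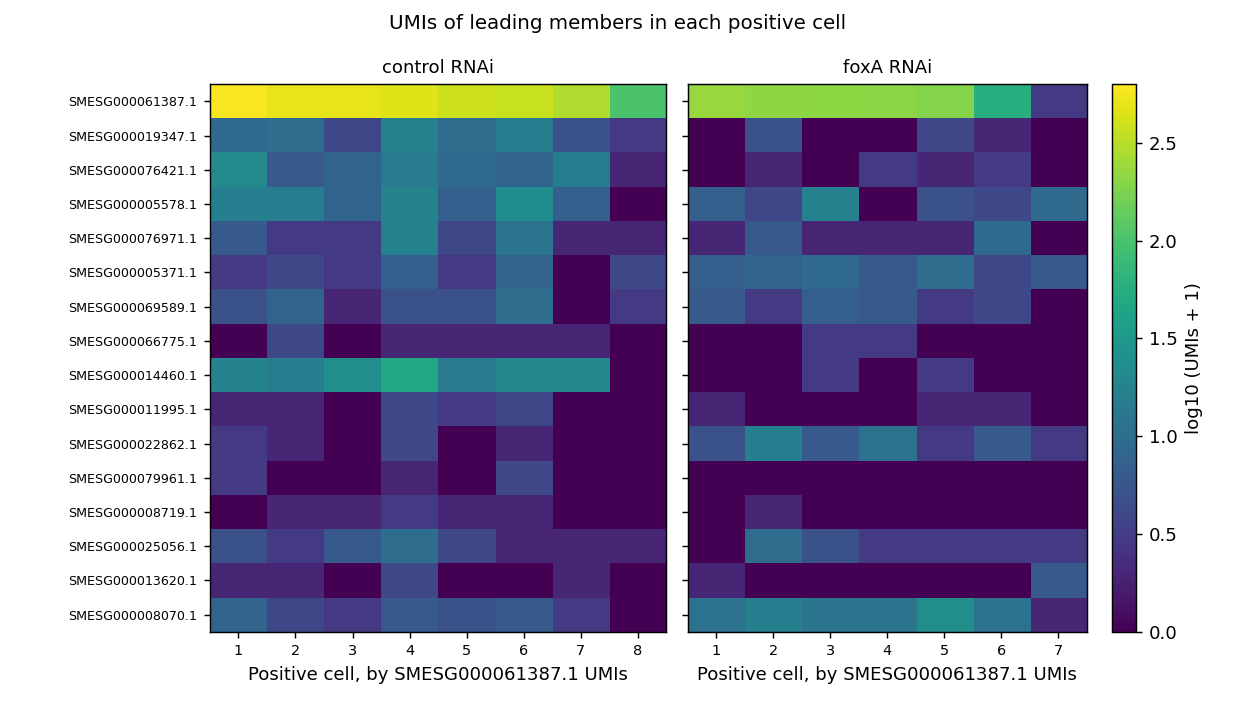
UMIs of the 15 leading members and SMESG000008070.1 in each positive cell, as log10 of UMIs plus 1 (colour), with cells ordered by SMESG000061387.1. SMESG000019347.1 and SMESG000076421.1 were found in all 8 control cells, while SMESG000014460.1 was found in 7 control cells and in 2 of 7 foxA cells, with 2 UMIs in each of these 2.

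Apart from SMESG000061387.1, no member was confined to the positive cells. SMESG000019347.1 had 35.9% of its control UMIs in them, SMESG000076421.1 18.9%, SMESG000005578.1 17.5% and SMESG000076971.1 11.7%. For 83 of the 99 other members the share was under 5%, and the median was 2.33%. Much of the remainder lay in cells of cluster 2 without SMESG000061387.1. For the 12 members with at least 10 UMIs, a median of 57.0% of the control UMIs lay there, against 32.2% for those with 4 to 9 UMIs and 21.0% for those with 2 or 3. The median over all 10524 genes was 8.25%, and these cells held 9.14% of the library's UMIs. In control, 19 of the 99 other members had over 50% of their UMIs in these cells, against 2.81% of all genes.

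**Figure D3:**
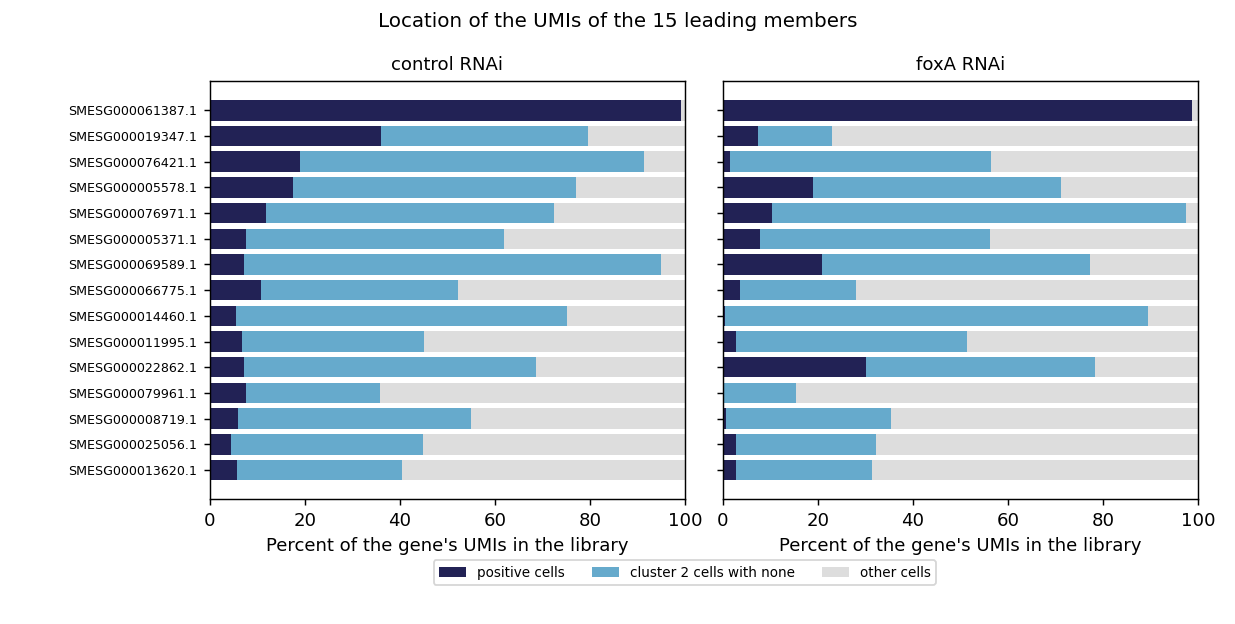
Percent of each gene's UMIs (horizontal) in positive cells, in cluster 2 cells with no UMI of SMESG000061387.1 and in other cells, for the 15 leading members in each library. SMESG000061387.1 lies almost wholly in positive cells, and in control 8 of the 9 members of rank 2 to 10 have over 50% of their UMIs in cluster 2 as a whole, while in foxA most UMIs of SMESG000019347.1 lie in other cells.

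SMESG000019347.1 was not bound to cluster 2. Among cells without SMESG000061387.1, 68.1% of its control UMIs lay in cluster 2 and 21.6% in cluster 8, while 71.3% of its foxA UMIs lay in cluster 8.

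Within the rest of cluster 2 several leading members were concentrated in few cells at high counts. In the control library SMESG000014460.1 had at least 10 UMIs in 32 cells, 7 of them positive and 19 in cluster 2 without SMESG000061387.1, and these 32 cells held 95.02% of its UMIs. In 1 cell without SMESG000061387.1 it reached 281 UMIs. SMESG000069589.1 had at least 10 UMIs in 10 control cells, none of them positive, and reached 71 UMIs. SMESG000076421.1 had at least 10 UMIs in 11 control cells, 3 of them positive and 7 in cluster 2 without SMESG000061387.1. SMESG000005371.1 was spread more evenly, with 105 carrying cells and 1.72 UMIs per carrying cell in the control cells of cluster 2 without SMESG000061387.1.

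Together the other members made up between 10.3% and 21.3% of the UMIs of genes other than SMESG000061387.1 in each positive control cell, with a median of 18.6%. In the positive foxA cells, which the rule did not use, they made up between 1.77% and 7.12%, with a median of 5.34%. The control share was raised by the choice of members in these same 8 cells, so nothing is read from the gap between the libraries. In cluster 2 cells without SMESG000061387.1 the medians were 1.81% in control and 1.40% in foxA, and outside cluster 2 they were 0.208% and 0.222%.

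The leading members met in the positive cells more than in their neighbours. Of the 9 members of rank 2 to 10, positive control cells had between 3 and 8 at 2 or more UMIs, with a median of 7.5, and positive foxA cells had between 2 and 5, with a median of 5. Among the 598 control cells of cluster 2 without SMESG000061387.1, 423 had none of the 9 at that count, 150 had 1, 23 had 2 and 2 had more. In the foxA library, 456 of 602 such cells had none, 130 had 1, 12 had 2 and 4 had more, so cells with 2 or more overlap the range of the positive foxA cells. The positive foxA cells were also deeper, with a median of 1386 UMIs of genes other than SMESG000061387.1 against 763 UMIs. The control values describe the choice of members, and the foxA values come from cells that the rule did not use.

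The foxA library gave an independent reading of the same ratio. Of the 98 other members with at least 50 UMIs there, 36 were at least 4-fold higher in positive cells than in cells without SMESG000061387.1, against 3.58% of all 12061 genes tested. At 2-fold the count was 54, against 13.7% of all genes. The median log2 ratio was 1.24 over the members and -1.16 over all genes; many genes had 0 UMIs in the 7 cells. The count fell to 18, against 1.02% of all genes, when cells with 1 UMI were taken as positive, and to 23, against 0.937%, with 50 CPM in place of 10 CPM in the ratio.

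Members with more UMIs in the positive control cells recurred more often. At least 4-fold was reached by 10 of the 12 with 10 or more, 17 of the 30 with 4 to 9, and 9 of the 56 tested with 2 or 3. Of all genes, 3.58% reached it. These groups also differed in the ratio that chose them, with medians of 34.8, 12.1 and 8.93, and the 2 were not told apart. The exceptions among the 12 were SMESG000014460.1 (2.82-fold) and SMESG000068054.1 (2.34-fold), the latter named after its values were seen. Of the 99 other members, 32 had 0 UMIs in the positive foxA cells, which at a floor of 3 UMIs over the 7 cells allows up to 220 CPM. Enrichment at levels below that was not detectable there. In the positive control cells these 32 stood between 255 and 893 CPM, each above that floor. Those control levels rest on 2 to 7 UMIs and chose the members. Choosing 100 genes in the foxA library by the same rule gave 20 shared genes, or 19 without SMESG000061387.1, 8 of them among the 12.

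**Figure D4:**
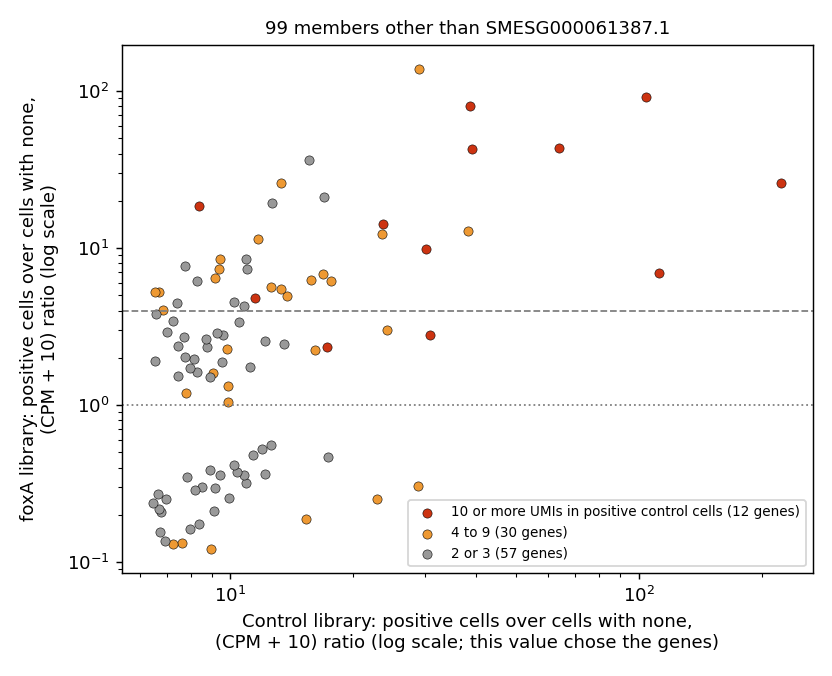
Ratio of CPM plus 10 in positive cells over cells with none, for the 99 other members, in the control library (horizontal, log scale, the value that chose them) and in the foxA library (vertical, log scale), coloured by UMIs in positive control cells. The dashed line marks 4-fold, which 10 of the 12 members with 10 or more UMIs exceed, and the dotted line marks equal levels.

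Among the members of rank 2 to 11 the highest ratios in the foxA library were those of SMESG000022862.1 (ratio 139), SMESG000005578.1 (92.0), SMESG000069589.1 (80.3), SMESG000076971.1 (43.6) and SMESG000005371.1 (42.5). SMESG000005578.1 had 6, 3, 16, 0, 4, 3 and 8 UMIs in the 7 foxA cells, and SMESG000005371.1 had 6, 7, 8, 5, 9, 3 and 5. Both were thus present in at least 6 of 7 cells, including the cell with only 2 UMIs of SMESG000061387.1. SMESG000019347.1 had a ratio of 26.04 from 8 UMIs in 3 cells, and SMESG000076421.1 a ratio of 6.95 from 6 UMIs in 4 cells.

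Set against the rest of cluster 2 instead of all cells, fewer members stood out. In the foxA library 17 of 98 members were at least 4-fold higher in positive cells than in cluster 2 cells without SMESG000061387.1, against 3.52% of all genes. Among the 12 members with 10 or more UMIs, 5 passed: SMESG000019347.1 (15.1-fold), SMESG000005578.1 (14.5-fold), SMESG000069589.1 (14.4-fold), SMESG000005371.1 (6.69-fold) and SMESG000076971.1 (4.85-fold). By summed CPM, SMESG000076421.1 was at 1.06-fold and SMESG000014460.1 at 0.253-fold, from 6 and 4 UMIs in the positive foxA cells. By the share of foxA cells with a UMI, both were more frequent in positive cells. These shares were 57.1% against 2.66% for SMESG000076421.1 and 28.6% against 8.80% for SMESG000014460.1, and the positive cells were deeper. In the control library the CPM ratios of both genes were 12.9 and 3.92. There 59 of 99 members were at least 4-fold higher, against 2.39% of all genes, a count that the choice of members helped to set.

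Whether a member was seen in only some of the 8 cells could be asked of those with 3 or more UMIs. For each member the number of positive control cells with a UMI was set against the number expected had it the same CPM in each cell at that cell's depth. The ratio was at most 0.5 for 4 of the 100 members, and a member with 2 UMIs cannot go below 0.573. Neither the share of all genes at this ratio nor the number that thin sampling would give was computed. No member is therefore read as marking part of the class. SMESG000022270.1, SMESG000026491.1 and SMESG000051274.1 each had 3 UMIs in 1 cell where 2.45 cells were expected, and SMESG000072162.1 had 7 UMIs in 2 cells where 4.50 were expected. The fifth lowest, SMESG000074721.1, had 2 UMIs in 1 cell. None of the 12 members with 10 or more UMIs was at or below 0.5. In the foxA cells the first 3 had 1 UMI each and SMESG000072162.1 had 2, too few to ask the same there. No pair among the 5 was seen in the same cell after thinning to 400 UMIs, but the most that independence would give any pair was 0.143 cells.

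Of the other members, 4 were found in all 8 positive control cells, counting only the 99, and 10 were found in at least 6, all of them with 10 or more UMIs. A further 49 were found in at most 2 cells, 12 of them in a single cell. These counts come from the cells that chose the members, and the share over all genes is not given here, so they are descriptive. The median share of control cells without SMESG000061387.1 that had a UMI was 1.40% for members with 10 or more UMIs, 2.64% for those with 4 to 9 and 1.63% for those with 2 or 3.

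Between the libraries, the levels within positive cells shifted most for 2 leading members. This contrast uses the control level that chose the members, which favours lower values in the foxA library, so the counts are descriptive. The floor of 50 UMIs, summed over both libraries, also lets a member pass through the library where it is high, as SMESG000022862.1 did with 7 and 43 UMIs. The contrast moves with SMESG000061387.1 as well. SMESG000061387.1 took 40.8% of the UMIs of the positive control cells and 8.17% in foxA, and 29 genes with at least 50 UMIs in these cells had a median log2 ratio of 0.73, or 0.10 when its UMIs were left out of the totals. Of the 9 other members tested, 6 were at least 2-fold lower in foxA, against 24.1% of the 29 genes, and 1 was at least 2-fold higher, against 37.9%. Without SMESG000061387.1 in the totals the members' counts were again 6 and 1, against 31.0% and 27.6%, and with TMM scaling (edgeR) they were 5 and 2, against 20.7% and 55.2%, the second higher member being SMESG000008070.1 at a log2 ratio of 1.12.

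SMESG000014460.1 fell from 149 UMIs in the 8 control cells, 19010 CPM, to 4 UMIs in the 7 foxA cells, 294 CPM (80.0 to 752), a log2 ratio of -5.97 on the scale of CPM plus 10. In foxA it had 0, 0, 2, 0, 2, 0 and 0 UMIs. In control 7 cells had 13 to 45 UMIs and the eighth had 0, level with 5 of the foxA cells. Cells of 1 library are not replicates of a condition. SMESG000076421.1 fell from 75 to 6 UMIs, or from 9569 to 440 CPM (162 to 958), a log2 ratio of -4.41. It had 0, 1, 0, 2, 1, 2 and 0 UMIs in the foxA cells, against 1 to 20 in control. Without SMESG000061387.1 in the totals the log2 ratios were -6.61 and -5.05. The direction for SMESG000014460.1 turned, to a log2 ratio of 0.73, when the class was drawn from the other members, which gave 8 control cells, 4 of them positive, and 1 foxA cell that was not positive.

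SMESG000022862.1 rose from 7 UMIs, or 893 CPM (359 to 1840), to 43 UMIs, or 3156 CPM (2284 to 4251), a log2 ratio of 1.81, and 1.18 without SMESG000061387.1 in the totals. It turned to -6.30 with the class drawn from the other members. It was found in 4 of 8 control cells and in 7 of 7 foxA cells, which had between 2 and 15 UMIs. SMESG000008070.1, the next highest, had 28 UMIs (3572 CPM) in control and 81 (5945 CPM) in foxA, a log2 ratio of 0.73 that was 0.10 without SMESG000061387.1 in the totals. With SMESG000061387.1 in the totals, SMESG000005371.1 had 3190 and 3156 CPM, a log2 ratio of -0.02. The median of the 29 genes on the same totals was 0.73. The remaining tested members had log2 ratios of -3.80 (SMESG000019347.1), -2.06 (SMESG000076971.1), -1.92 (SMESG000005578.1) and -1.22 (SMESG000069589.1).

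The cells of cluster 2 without SMESG000061387.1 hold most of the UMIs of several of these genes. In control they were 598 of the 5945 cells without SMESG000061387.1. For members of rank 2 to 10 they held between 41.0% and 95.4% of the control UMIs in such cells, so the rule used these values. Members also needed 50 UMIs in control alone, while the 4648 genes passed on both libraries summed. This floor favours lower values in foxA, so the counts are descriptive. This comparison was added after the data were seen. Of 70 members with at least 50 UMIs there, 5 were lower by at least 2-fold in foxA, against 1.81% of all 4648 genes tested, and 0 were at least 2-fold higher, against 1.31%. The median log2 ratio was -0.12 over the members and 0.10 over all genes. All 5 were among the 9 members of rank 2 to 10, and the other 65 members lay between -0.80 and 0.85.

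**Figure D5:**
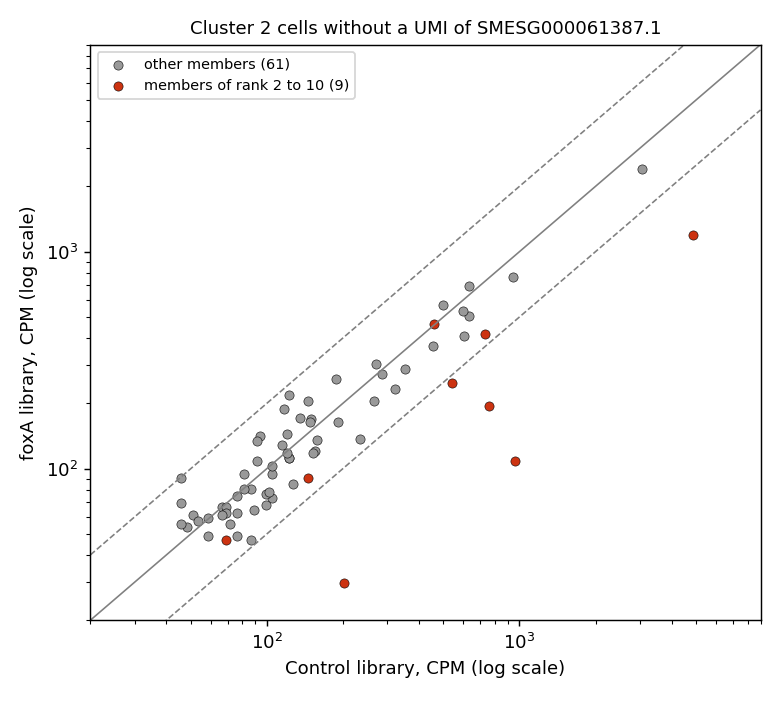
CPM of 70 members in cluster 2 cells without a UMI of SMESG000061387.1, control library (horizontal, log scale) against foxA library (vertical, log scale), with lines at equal level and at 2-fold. The 5 members below the lower line all belong to rank 2 to 10, and no member lies above the upper line.

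These 5 differed in how the change was made up of cells and of UMIs per cell. SMESG000014460.1 had 4844 CPM in control (1903 UMIs) and 1190 CPM in foxA (683 UMIs), a log2 ratio of -2.02. Its carrying cells numbered 40 of 598 in control and 53 of 602 in foxA, while the UMIs per carrying cell went from 47.6 to 12.9. Cells with at least 10 UMIs numbered 19 and 16. The foxA cells were deeper, with a median of 763 UMIs against 521, which favours carriers of few UMIs there. In the foxA library 1 of these cells held 223 of the 683 UMIs. Of the 7 positive foxA cells, 2 carried the transcript, with 4 UMIs in all. So few cells could miss such high carriers, and the difference between the 2 classes was not tested.

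SMESG000069589.1 was lower in both carrying cells and UMIs per carrying cell, with 376 UMIs (957 CPM) in 40 carrying control cells and 62 UMIs (108 CPM) in 12 carrying foxA cells, a log2 ratio of -3.03. Its UMIs per carrying cell were 9.40 and 5.17. In the positive cells it was found in 7 of 8 control and 6 of 7 foxA cells, but its level was lower there too. It went from 3955 to 1688 CPM, a log2 ratio of -1.22. The positive foxA cells were deeper, with a median of 1386 UMIs of genes other than SMESG000061387.1 against 509.5 in control. SMESG000019347.1 had 79 UMIs in 15 control cells and 17 UMIs in 3 foxA cells (-2.41), SMESG000005578.1 had 297 UMIs in 53 cells and 111 in 32 (-1.91), and SMESG000076971.1 had 212 UMIs in 52 cells and 143 in 32 (-1.08). The value of SMESG000019347.1 was -0.64 with the cluster drawn at the coarser resolution of 0.25, and that of SMESG000076971.1 was -1.57 there and -0.72 at 1.0.

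SMESG000076421.1 had 287 UMIs in 12 control cells and 239 UMIs in 16 foxA cells, a log2 ratio of -0.80, so its shift within positive cells was not matched in size by its shift in the neighbouring cells. The difference between these values was not tested. SMESG000005371.1 was level in these neighbouring cells, at 461 and 463 CPM in 105 and 128 cells.

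Over all cells, 6 of the 99 other members were lower by at least 2-fold under foxA RNAi, against 1.29% of all 13124 genes tested, and 0 were at least 2-fold higher, against 0.983%. The median log2 ratio was -0.04 over the members and 0.05 over all genes. The 6 were the 5 genes above and SMESG000065670.1, which had 113 UMIs in control and 11 in foxA and is named after its values were seen. It had only 3 UMIs in the positive control cells. These sums include the positive control cells that chose the members. Members also had to reach the UMI floor in the control library alone, while the 13124 genes passed on both libraries summed. This floor favours lower values in foxA, so the counts over all cells are descriptive. In cells without SMESG000061387.1 the log2 ratio of SMESG000019347.1 was -0.70, against -1.13 over all cells, and those of the other 5 lay between -2.51 and -1.51.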

How the data were processed

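Droplet 3′ single-cell counts of pooled trunk cells were analysed, 1 library per condition. The authors deposited whole-number UMI counts per gene and cell barcode, not normalized. Per the file headers the counting software was Cell Ranger 6.1.2, whereas the submitters' processing notes name version 7. The cDNA was digested with 30 guides against 16S sequence, per the labels' protocols. Genome build, annotation and cell calling are not given in the sources used here.

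Cells with fewer than 200 genes were removed (78 control, 17 foxA). Counts were summed per class of cells and scaled to CPM, ratios used CPM plus 10, and 2-fold (between libraries) or 4-fold (between classes) was counted. Clusters came from scanpy 1.11.5 and igraph 0.11.9 (2000 variable genes, 30 components, 15 neighbours, Leiden resolution 0.5, no integration). TMM factors came from edgeR 4.0.16. Intervals are exact Poisson, binomial or conditional binomial. The procedure was tested on simulated data. Genes named were the 10 leading members, 5 lowest for partial marking, 2 highest and 2 lowest between libraries, 2 on each side of the threshold, and 2 highest and 2 lowest outside the class. Members, lists and rules were chosen with earlier results of these data known.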

Additional observations from a re-analysis of the deposited data

Results flagged for a closer look

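In 2 members the foxA over control ratio had opposite signs in positive cells and in cells without SMESG000061387.1, with both counting intervals clear of 0. SMESG000022862.1 had a plain log2 ratio of 1.82 (0.66 to 3.22) in positive cells and -0.72 (-1.15 to -0.29) in cells without SMESG000061387.1. SMESG000008070.1 had 0.73 (0.10 to 1.41) and -0.43 (-0.52 to -0.34). With 1 library per condition the difference between the classes was not tested. How many of all genes had such opposite signs was not counted. In positive cells the median log2 ratio of the 29 genes with at least 50 UMIs was also 0.73, the value of SMESG000008070.1. SMESG000022862.1 passed that floor with 7 UMIs in control and 43 in foxA. The share of SMESG000061387.1 in the positive cells, 40.8% in control and 8.17% in foxA, moves with the first value of each pair, and without it in the totals the log2 ratio in positive cells was 1.18 for SMESG000022862.1 and 0.10 for SMESG000008070.1.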

How the results depend on the processing

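No paired analysis was possible because the groups share a single replicate number. Alternatives with 10 UMIs as the threshold, totals without SMESG000061387.1, other cluster resolutions and every setting for cluster 2 cells without it were chosen after seeing the data. Of the 100 members, 44 were chosen again from cells with at least 500 genes (2 positive control cells), 38 with cells of 1 UMI as positive, 65 with a gene floor of 20 UMIs, 44 with no floor and 40 from cells thinned to 400 UMIs. Members at least 4-fold higher in foxA numbered 18 with cells of 1 UMI and 23 with 50 CPM added. With cells of 1 UMI, 0.552% of control and 0.310% of foxA cells were positive, a log2 ratio of -0.83 (-1.70 to -0.0015). Within positive cells, members at least 2-fold lower numbered 2 with 500 genes, 2 with a floor of 100 UMIs, 78 with no floor, 1 after thinning and 0 with the class drawn from the other members. Those at least 2-fold higher numbered 0 with 500 genes, with 3 or 10 UMIs as the threshold, with the 100 UMI floor, after thinning, with the class from other members and in the whole of cluster 2, and 2 with mean per-cell CPM and with TMM. The median log2 ratio was -4.74 after thinning (1 member tested) and 0.73 with the class from other members. That class held 8 control cells, 4 of them positive, and 1 foxA cell, none positive, and it turned SMESG000014460.1 to 0.73 and SMESG000022862.1 to -6.30. The ratio of SMESG000011995.1 in foxA turned to -1.29 (log2) after thinning. Over all cells, members higher numbered 2 with 500 genes and 2 with 1 CPM added, and members lower 3 with 50 CPM. In cluster 2 cells without SMESG000061387.1, members higher numbered 1 with a floor of 20 UMIs and 1 at resolution 1.0. Members at or under the ratio of observed to expected positive cells numbered 0 with 500 genes, 7 with cells of 1 UMI and 0 after thinning. They numbered 17 at a ratio of 0.67, which lets in members with 2 UMIs in 1 cell, and 0 at 0.33. None is read as marking part of the class. The causes were not tested, but thinning and higher floors leave fewer UMIs and genes. The other 104 values of this kind stayed within 1.5 times or the counting interval. The remaining values were those for single genes and the number of the 12 members with 10 or more UMIs chosen again. Of these values, 241 stayed, 34 moved and 3 reversed. The 8 and 7 positive cells limit every value within them.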
